A study of Rattus norvegicus with 6 samples.

Results

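The endoplasmic reticulum (ER) chaperones and the genes of the unfolded protein response (UPR) were followed in rat brain microvascular endothelial cells (rBMECs) given homocysteine (Hcy) or vehicle (Veh). The set holds 34 genes chosen by symbol for their known roles in the ER, and each symbol matched 1 of the 33566 genes in the count table. They comprise 11 chaperones and co-chaperones, 9 enzymes of disulfide chemistry, 9 genes of ER-associated degradation (ERAD) and 5 sensors and effectors of the UPR. Of these genes 33 held at least 10 counts summed over the 6 libraries and were tested, among 14603 genes tested in all. The remaining gene, Derl3, is listed at 0 counts in every library.

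rBMECs are primary endothelial cells of brain capillaries, which form the blood–brain barrier, and here they came from the cerebral cortex (by the labels, forebrain by the methods of the study) of Sprague-Dawley (SD) rats aged 18 to 22 days and were used after a single passage. Hcy is a sulfur amino acid of methionine metabolism. The Hcy group (3 libraries) received 100 μM Hcy for 24 h by its label, whereas the treatment protocol also names a prepared solution of 50 μM, so the dose is uncertain. The Veh group (3 libraries) received double-distilled water, the solvent of Hcy. The labels name no genetic change in these rats. Neither labels nor methods say whether the 3 libraries of a group came from separate animals or cultures, so p-values measure the spread between these libraries, which may be technical. The comparison asks how Hcy altered the transcriptome of these cells.

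Proteins that enter the ER are folded by chaperones such as BiP (Hspa5), joined by disulfide isomerases of the PDI family, and, when folding fails, returned to the cytosol for degradation by the proteasome. Unfolded protein in the ER activates the sensors IRE1 (Ern1), ATF6 (Atf6) and PERK (Eif2ak3). IRE1 splices Xbp1 mRNA into the form that encodes an active transcription factor, ATF6 is cleaved into a transcription factor, and PERK phosphorylates a translation initiation factor, which favours synthesis of ATF4. ATF6 and spliced XBP1 raise transcription of chaperone and ERAD genes through short promoter elements, the ER stress response elements (ERSE and ERSE-II) and the UPR element (UPRE). Endothelial cells depend on this machinery to secrete matrix and coagulation proteins.

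Libraries held 14024997 to 16764584 counts, at which 3 counts equal 0.178 to 0.215 CPM (counts scaled to library size with edgeR's TMM factors), a limit that covers counting error only. Of 15 endothelial markers 14 were in the table, and their summed level was 10505 to 10932 CPM in Hcy and 9010 to 10427 CPM in Veh. Singly they went both ways, 8 above and 6 below 0, with log2 fold changes of Hcy over Veh from -0.53 to 2.04. At an unadjusted p of at most 0.05 in edgeR 4 were higher and 4 lower (all genes 7.44% and 5.95%), and 0 passed after adjustment. Summed levels of 8 mural markers were 5.55 to 8.66 CPM in Hcy and 4.51 to 6.37 CPM in Veh, and those of 5 fibroblast markers 44.9 to 68.7 and 63.5 to 91.2 CPM. Col1a1, at a mean of 58.5 CPM, was the most abundant fibroblast marker and weighed most in that sum. Of the 4 fibroblast markers tested, 3 had log2 fold changes of Hcy over Veh above 0 and 1 below, with a median of 0.30. The 6 markers each of astrocytes, microglia, neurons and oligodendrocytes summed to at most 12.4 CPM in any library, with Aqp4, Slc1a2, Cx3cr1, P2ry12, Ptprc, Rbfox3, Snap25 and Mag at 0 in all 6. The part of other cells in the results was not tested, and in bulk samples fewer cells of a type and less RNA per cell cannot be told apart.

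Veh replicate 3 stood apart from the other Veh libraries, in a way that followed gene length. Among the 33 ER genes, the log2 ratio of this library to the mean of Veh replicates 1 and 2 had a median of 0.14 for the 14 shortest genes (up to 1891 bases), -0.02 for 11 genes of middle length and -0.34 for the 8 longest (from 3307 bases). Over the 8250 genes with a mean of at least 10 CPM, the medians of the same length classes were 0.23, 0.02 and -0.18. Spearman's rho between a library's deviation from its group and gene length was -0.82 for Veh replicate 3 over the 33 ER genes, a description only, since the genes share 1 library. Over the 8250 genes it was -0.63 for that library. For the ER genes it was -0.33, 0.40 and -0.10 in Hcy replicates 1, 2 and 3, against -0.37, 0.34 and 0.03 over the 8250 genes, and the rho of 0.65 and 0.73 in Veh replicates 1 and 2 (0.48 and 0.53 over the 8250 genes) were set against the mean that includes replicate 3. Of the 33 genes, 9 had their lowest level of all 6 libraries in Veh replicate 3, with a median length of 4491 bases, and 11 had their highest there, with a median of 1567 bases. These shares, 27.3% and 33.3%, were near the 26.5% and 30.4% of the 8250 genes. Veh replicate 2 had the lowest level in more of the 33 genes, 12, and the highest in 3. Because of the trend with gene length, calls were repeated without Veh replicate 3, and with that trend removed from every library. The latter alternative was chosen after the data were seen. Without the library, the log2 fold change of Hcy over Veh moved by more than 0.1 in 8 of the 33 genes (Manf, Pdia5, Erp29, Edem1, Edem3, Sel1l, Atf6 and Eif2ak3), for which both values are given. This was 24.2% of them, against 30.0% of the 8250 genes. With the length trend removed, 0 of the 33 moved by more than 0.1, Manf moving most, by 0.055.

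**Figure D1:**
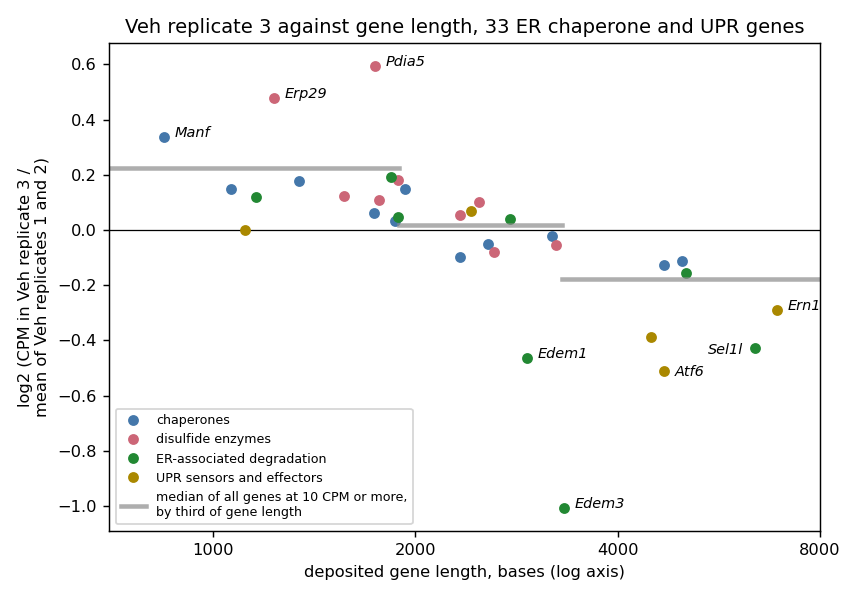
Deviation of Veh replicate 3 in the 33 ER chaperone and UPR genes. The horizontal axis is the deposited gene length in bases (log axis), the vertical axis the log2 ratio of the CPM in Veh replicate 3 to the mean of Veh replicates 1 and 2, each point is a gene coloured by role, and grey lines are medians of 2749 to 2751 genes per length class. Short genes such as Manf, Erp29 and Pdia5 lie above 0 and long genes such as Sel1l, Atf6 and Edem3 below it.

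Of the 33 genes tested, 1 fell in Hcy and 0 rose. The gene that fell was Pdia5, a member of the PDI family. For comparison, 1.32% of all genes tested rose and 1.01% fell at an adjusted p of at most 0.05 in the quasi-likelihood test of edgeR, adjusted by the Benjamini-Hochberg method over all 14603 genes, which makes 2.34% in both directions. At an unadjusted p of at most 0.05 in the same edgeR test, 2 of the 33 genes were higher (Hspa5 and Herpud1; all genes 7.44%) and 2 lower (Pdia5 and Ern1; all genes 5.95%). DESeq2 called 1 gene higher (Hspa5; all genes 2.40%) and 1 lower (Pdia5; all genes 1.79%). Without Veh replicate 3, edgeR called 2 higher (Hspa5 and Herpud1; all genes 3.48%) and 3 lower (Pdia5, Ern1 and Sel1l; all genes 3.18%). With the length trend removed, it called 1 higher (Hspa5; all genes 2.70%) and 1 lower (Pdia5; all genes 1.97%).

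The other ER genes lay close to their Veh level. The median log2 fold change of Hcy over Veh was 0.02 over the 33 genes and -0.02 over all genes tested. Apart from Pdia5, log2 fold changes ran from -0.28 (Ern1) to 0.25 (Herpud1). The median absolute log2 fold change was 0.09 for the 33 genes, against 0.15 for all genes tested and 0.10 for the 8250 genes at 10 CPM or more, the range in which 32 of the 33 lie. The 95% interval of the fold change lay within 1.5-fold in either direction for 31 of the 33 genes, or 93.9%, against 55.2% of all genes tested, and the exceptions were Pdia5 and Edem3. At a mean of 10 CPM or more the shares were 96.9% of 32 ER genes and 88.1% of the 8250 genes. Thus for 31 genes a change beyond 1.5-fold lay outside the interval, although smaller changes lay within it.

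**Figure D2:**
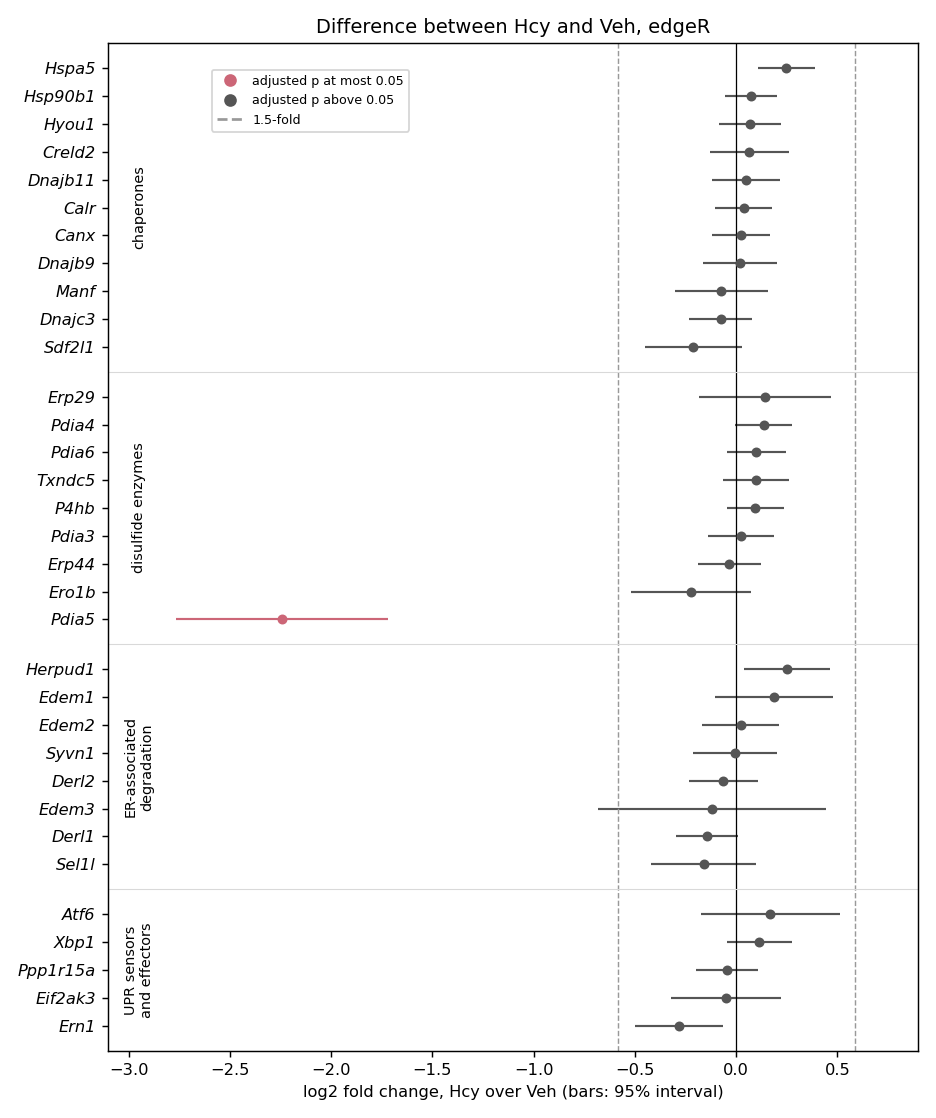
Fold change of the 33 ER chaperone and UPR genes, grouped by role. The horizontal axis is the log2 fold change of Hcy over Veh from edgeR, bars are 95% intervals, and dashed lines mark 1.5-fold. Pdia5 lies at -2.24, and the other 32 genes lie between -0.28 and 0.25.

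In 5 genes every Hcy library was above every Veh library (Hspa5, Hsp90b1, Pdia4, Pdia6 and Xbp1), or 15.2% of the 33, where 10.8% of all genes tested showed this. In another 5 (Dnajc3, Pdia5, Ero1b, Derl1 and Ern1), or 15.2%, every Hcy library was below, against 9.27% of all genes, so that 20.1% of all genes did not overlap in either direction. At a mean of 10 CPM or more the shares above and below were 15.6% and 12.5% of 32 ER genes. Among the 8250 genes at that level they were 11.6% and 10.8%. Without Veh replicate 3 the counts were 11 higher and 8 lower, where 19.5% and 18.9% of all genes tested did not overlap. Together the 34 genes took 1.13%, 1.10% and 1.11% of the counts of Hcy replicates 1, 2 and 3, and 1.07%, 1.07% and 1.05% of those of Veh replicates 1, 2 and 3. These shares did not overlap between the groups, and they weigh the most abundant genes most.

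**Figure D3:**
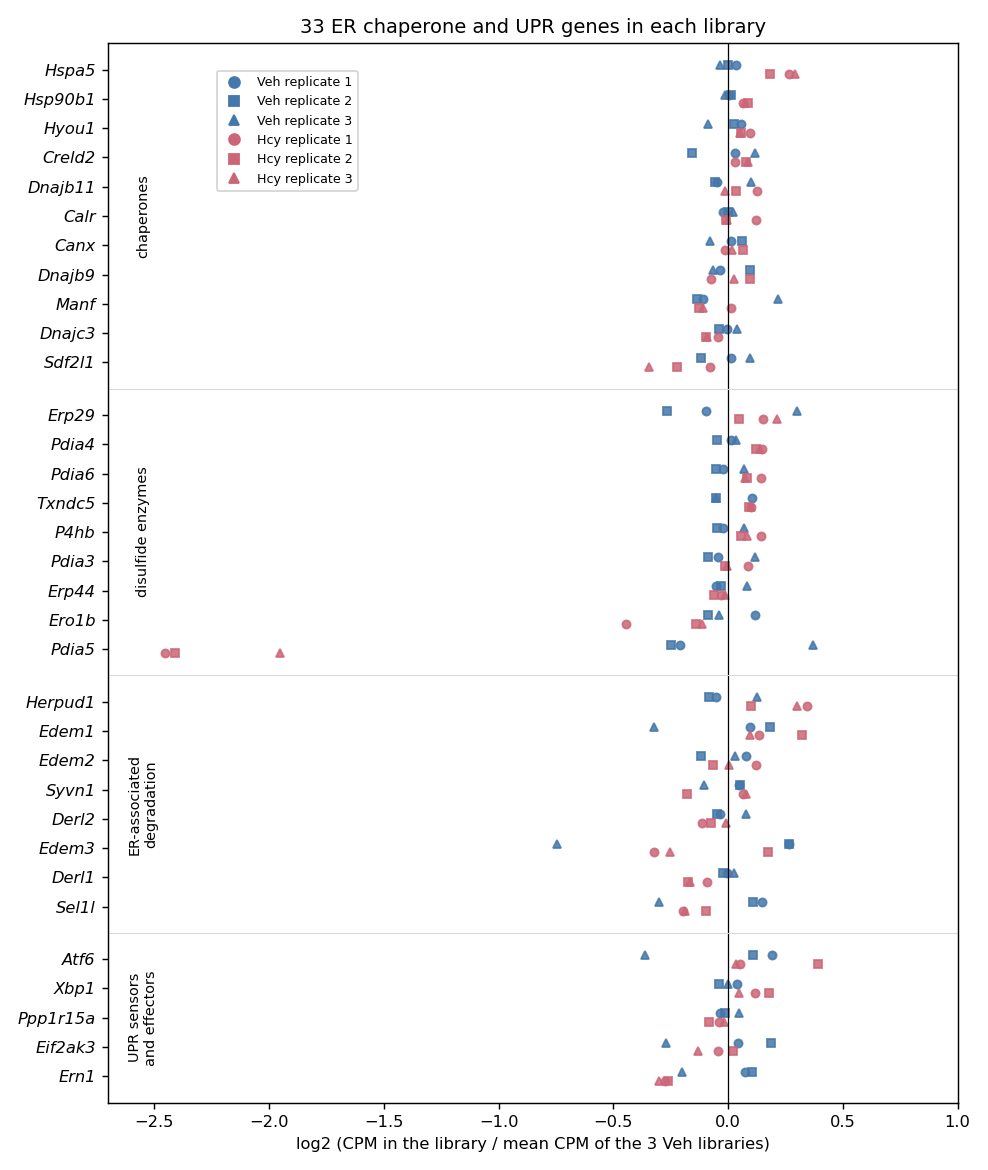
Levels of the 33 ER chaperone and UPR genes in each library. The horizontal axis is the log2 ratio of the CPM in a library to the mean CPM of the 3 Veh libraries, rows are genes grouped by role, and each symbol is a library. The 3 Hcy libraries of Pdia5 stand far to the left of the rest, Hcy symbols of Hspa5 lie right of its Veh symbols, and Veh replicate 3 (triangles) is the outermost Veh symbol in genes such as Edem3, Atf6, Edem1 and Sel1l.

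Among the chaperones 0 of 11 passed edgeR's test in either direction, and their median log2 fold change was 0.04. At an unadjusted p of at most 0.05 in edgeR 1 was higher (Hspa5) and 0 were lower, and DESeq2 called Hspa5 alone. Hspa5 encodes BiP, the Hsp70 chaperone of the ER that also holds the UPR sensors inactive, and is listed on chromosome 3 from 13838304 to 13842762. It reached 1022, 964 and 1038 CPM in Hcy replicates 1, 2 and 3, and 868, 849.7 and 829 CPM in Veh replicates 1, 2 and 3. The lowest Hcy library was therefore above the highest Veh library, and Veh replicate 3 was the lowest of all. The mean level was 18.7% higher in the Hcy group, equal to 0.25 on the log2 scale (standard error, SE, 0.06, 95% interval 0.11 to 0.39, edgeR adjusted p = 0.091). The adjusted p was 0.0176 with DESeq2, 0.023 in edgeR without Veh replicate 3 and 0.0134 in edgeR with the length trend removed. Over 15 alternatives the log2 fold change stayed between 0.23 and 0.28, while the adjusted p of the edgeR and DESeq2 fits ran from 0.0134 to 0.378.

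The other large chaperones of the lumen and membrane were near their Veh level. Hsp90b1, the ER member of the Hsp90 family, measured 997, 1013 and 1005 CPM in Hcy and 956, 962 and 944 CPM in Veh. These groups did not overlap, but the difference was small, with a log2 fold change of 0.07 (95% interval -0.05 to 0.20, edgeR adjusted p = 0.649). Calr and Canx encode calreticulin and calnexin, lectin chaperones that bind newly made glycoproteins. Calr measured 1836, 1676 and 1683 CPM in Hcy and 1665, 1686 and 1714 CPM in Veh, and its log2 fold change was 0.04 (95% interval -0.11 to 0.18). For Canx the log2 fold change was 0.02 (95% interval -0.12 to 0.17). The Calr and Canx groups overlapped, and the sign turned for Calr without Hcy replicate 1 and for Canx without Veh replicate 3. Hyou1, an exchange factor for BiP, differed by a log2 fold change of 0.07 (95% interval -0.08 to 0.22).

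The J-domain co-chaperones Dnajb9, Dnajb11 and Dnajc3, which deliver substrates to BiP, had log2 fold changes of 0.02, 0.05 and -0.08. Dnajc3 was lower in each Hcy library (91.0, 87.6 and 88.0 CPM) than in each Veh library (93.6, 91.2 and 96.4 CPM), at an edgeR adjusted p of 0.706. Sdf2l1, a component of ER chaperone complexes and the gene of this group with the most negative value, measured 27.4, 24.8 and 22.8 CPM in Hcy and 29.1, 26.7 and 30.9 CPM in Veh. Hcy replicate 1 lay above Veh replicate 2, so the groups overlapped, and the log2 fold change was -0.21 (95% interval -0.45 to 0.03, edgeR adjusted p = 0.452). Manf and Creld2, secreted proteins that cells under ER stress release, had log2 fold changes of -0.07 and 0.07. Manf stood at 239.6 CPM in Veh replicate 3 and at 188 to 208 CPM in the other 5 libraries, and without that library its log2 fold change turned to 0.05, while with the length trend removed it was -0.02.

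Among the 9 disulfide enzymes Pdia5 fell and 0 rose in edgeR and in DESeq2, and the median log2 fold change was 0.09, or 0.02 without Veh replicate 2. Pdia5 (ENSRNOG00000032327) encodes a protein disulfide isomerase, an enzyme class that forms and rearranges disulfide bonds, and is listed on chromosome 11 from 68493035 to 68578995 with a length of 1738 bases. It had 30, 33 and 51 counts in Hcy replicates 1, 2 and 3, and 172, 156 and 220 counts in Veh replicates 1, 2 and 3. In CPM this was 2.15, 2.22 and 3.04 in Hcy, and 10.2, 9.94 and 15.2 in Veh. The highest Hcy library was far below the lowest Veh library, and all 6 libraries lay above the level of 3 counts. Pdia5 fell by 78.9%, with a log2 fold change of -2.24 (SE 0.23, 95% interval -2.77 to -1.72, edgeR adjusted p = 0.00214). It also passed the threshold of a log2 fold change of at least 1 in size, as 0.486% of all genes tested did (0.233% by a fall), and 32 tested genes had a smaller p. In 15 alternatives, among them each library left out in turn, its log2 fold change ran from -2.43 to -2.02, the latter without Veh replicate 3, and its adjusted p in the edgeR and DESeq2 fits from 2.66e-14 to 0.0219.

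No other gene of the table overlapped the Pdia5 interval. An unnamed gene elsewhere on chromosome 11 (67932841 to 68009503) shares the Swiss-Prot match of Pdia5, so reads may have been split between them, and its counts were 4, 4 and 12 in the Hcy group and 24, 6 and 1 in the Veh group. The counts of both genes summed to 34, 37 and 63 in Hcy and 196, 162 and 221 in Veh, which again did not overlap. Its nearest tested neighbour after it, Sec22a, lay 54165 bases away and had a log2 fold change of -0.04 (edgeR adjusted p = 0.930). The nearest before it, Slc49a4, lay 220277 bases away and had a log2 fold change of 0.05 (edgeR adjusted p = 0.879). Both neighbours were looked up after the Pdia5 values were seen, and neither passed the test. Gene counts do not show which exons or transcripts of Pdia5 the reads came from.

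Pdia5 was scarce in these cells beside the rest of its family. Levels can be compared between genes as CPM per kb of gene length, and on that scale Pdia3 had 773 ± 58.7, P4hb 524.5 ± 22.3 and Pdia6 265 ± 11.9 in Veh (mean ± SD, n = 3). Pdia5 had 6.79 ± 1.71 CPM per kb in Veh and 1.42 ± 0.286 CPM per kb in Hcy (SD, n = 3). In Veh only Ero1b, of the 9 enzymes, had a lower mean level, 4.43 ± 0.331 CPM per kb, and in Hcy Pdia5 was the lowest of the 9. None of the other 8 enzymes passed edgeR's test. P4hb, the founding PDI and also a subunit of collagen prolyl hydroxylase, measured 1443, 1357 and 1381 CPM in Hcy and 1286, 1262 and 1368 CPM in Veh, with overlap between the groups, and its log2 fold change was 0.09 (95% interval -0.05 to 0.24). For Pdia3, which works with calreticulin and calnexin, the log2 fold change was 0.02 (95% interval -0.14 to 0.19). Reads of Pdia3 can include those of Ppip5k1, which overlaps it on the opposite strand and held 9235 counts, since the use of strand in counting is not stated.

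**Figure D4:**
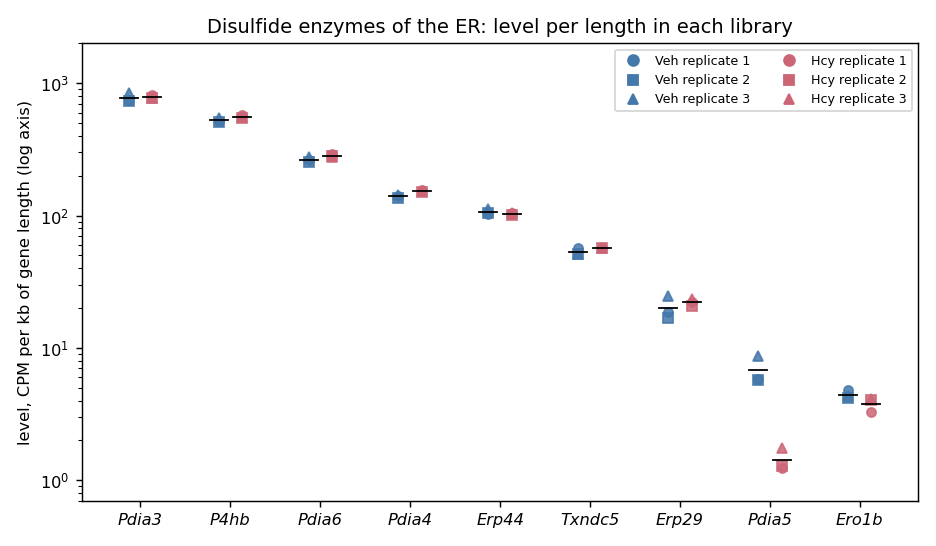
Level of the 9 disulfide enzymes in each library, as CPM per kb of gene length on a log axis. Each symbol is a library, Veh left and Hcy right for each gene, and black lines are group means over 3 libraries. Pdia5 lies at a mean of 6.79 CPM per kb in Veh and 1.42 in Hcy, while the Veh and Hcy means of the other 8 genes lie close to each other.

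Pdia4 and Pdia6 were higher in each Hcy library than in each Veh library, by small amounts. Pdia4 measured 361, 354 and 358 CPM in Hcy and 328, 315 and 334 CPM in Veh, with a log2 fold change of 0.14 (95% interval -0.0036 to 0.28, edgeR adjusted p = 0.390). Pdia6 measured 518, 496 and 494 CPM in Hcy and 461, 453 and 493 CPM in Veh, with a log2 fold change of 0.10 (95% interval -0.05 to 0.25, edgeR adjusted p = 0.580). Txndc5, an isomerase studied in endothelial cells, had a log2 fold change of 0.10 (95% interval -0.07 to 0.26). Erp29, a chaperone with a PDI-type fold, measured 27.5, 25.5 and 28.7 CPM in Hcy and 23.2, 20.6 and 30.5 CPM in Veh, where replicate 3 was the highest of the 6 libraries. Its log2 fold change was 0.14 (95% interval -0.18 to 0.47), and with each library left out it ran from 0.02 without Veh replicate 2 to 0.32 without Veh replicate 3 (edgeR adjusted p = 0.972 and 0.109). It was 0.18 with the length trend removed. Erp44, which retains oxidases in the early secretory pathway, had a log2 fold change of -0.03 (95% interval -0.19 to 0.12).

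Ero1b, an oxidase that recharges PDI, was low throughout. It measured 10.56, 13.03 and 13.25 CPM in Hcy and 15.55, 13.51 and 13.98 CPM in Veh. Every Hcy library lay below every Veh library, Hcy replicates 2 and 3 only narrowly, and the log2 fold change was -0.22 (95% interval -0.52 to 0.07, edgeR adjusted p = 0.528). Gpr137b overlaps Ero1b on the opposite strand and held 1424 counts, so reads of the 2 genes may be mixed. The related oxidase Ero1a, which is no part of the 34 genes, had a log2 fold change of -0.13 (95% interval -0.41 to 0.14, edgeR adjusted p = 0.712).

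Of the 8 ERAD genes tested 0 passed edgeR's test in either direction, and their median log2 fold change was -0.04, or -0.05 to 0.03 when each library was left out. At an unadjusted p of at most 0.05 in edgeR 1 was higher (Herpud1) and 0 were lower, and DESeq2 called 0. Herpud1, a scaffold of the HRD1 ubiquitin ligase complex, measured 71.6, 60.5 and 69.6 CPM in Hcy and 54.4, 53.4 and 61.6 CPM in Veh. Hcy replicate 2 lay just below Veh replicate 3, so the groups overlapped at that pair. The log2 fold change was 0.25 (SE 0.09, 95% interval 0.04 to 0.46, edgeR adjusted p = 0.264), and 0.32 without Veh replicate 3 (edgeR adjusted p = 0.0475). With the length trend removed it was 0.26 (edgeR adjusted p = 0.0787). Over its 15 alternatives the adjusted p in the edgeR and DESeq2 fits ran from 0.0475 to 0.590.

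Of the ubiquitin ligase of this pathway and its adaptor, the ligase lay at its Veh level and the adaptor differed with the use of Veh replicate 3. Syvn1, the ligase HRD1 itself, had a log2 fold change of -0.01 (95% interval -0.22 to 0.20), and its reads may include those of Mrpl49, which overlaps it on the opposite strand with 1330 counts. Sel1l, the adaptor of this ligase, measured 151, 162 and 152 CPM in Hcy and 192, 187 and 141 CPM in Veh. Its Hcy libraries lay below Veh replicates 1 and 2 and above replicate 3. The log2 fold change was -0.16 (95% interval -0.42 to 0.10, edgeR adjusted p = 0.625), and -0.29 without Veh replicate 3 (edgeR adjusted p = 0.0166). With the length trend removed it was -0.14 (edgeR adjusted p = 0.316).

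The mannosidase-type proteins Edem1, Edem2 and Edem3, which mark misfolded glycoproteins for disposal, had log2 fold changes of 0.19, 0.02 and -0.12. Without Veh replicate 3 these were 0.05, 0.04 and -0.38, at edgeR adjusted p = 0.772, 0.847 and 0.122, and with the length trend removed 0.19, 0.02 and -0.11. Edem3 was the least precise of the 33 genes, at 29.2, 41.2 and 30.7 CPM in Hcy and 43.9, 43.9 and 21.8 CPM in Veh. Its 95% interval ran from -0.68 to 0.44, and the coefficient of variation among the Veh libraries was 34.9%, against a median of 6.14% over the 33 genes. In Hcy the median coefficient of variation was 3.87%. The derlins Derl1 and Derl2, channel proteins of ERAD, had log2 fold changes of -0.14 and -0.06. Derl1 was lower in each Hcy library (119, 113 and 113 CPM) than in each Veh library (127, 125 and 129.5 CPM), with a 95% interval of -0.30 to 0.01 and an edgeR adjusted p of 0.403. Derl3 is listed at 0 in all 6 libraries, as is Smarcb1, a chromatin gene that overlaps it on the opposite strand and that most cells use. Genes with the Swiss-Prot matches of both lie on an unplaced contig, with 7 counts in all for the Derl3 match and 460 for the Smarcb1 match, so the 0 sets no limit on the level of Derl3.

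Of the 5 sensors and effectors 0 passed edgeR's test in either direction, with a median log2 fold change of -0.05, or 0.05 without Veh replicate 2. At an unadjusted p of at most 0.05 in edgeR 0 were higher and 1 was lower (Ern1), and DESeq2 called 0. Ern1, which encodes IRE1, measured 36.8, 37.2 and 36.1 CPM in Hcy and 47.0, 47.9 and 38.8 CPM in Veh. Every Hcy library lay below every Veh library, and Veh replicate 3 was nearest to the Hcy group. The log2 fold change was -0.28 (SE 0.10, 95% interval -0.50 to -0.06, edgeR adjusted p = 0.221), and -0.37 without Veh replicate 3 (edgeR adjusted p = 0.0102). With the length trend removed it was -0.26 (edgeR adjusted p = 0.0552).

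Xbp1, the mRNA that IRE1 splices, measured 125, 131 and 119.5 CPM in Hcy and 118.5, 113 and 115 CPM in Veh. The groups did not overlap, but Hcy replicate 3 and Veh replicate 1 nearly met, and the log2 fold change was 0.11 (95% interval -0.04 to 0.27, edgeR adjusted p = 0.547). Counts per gene do not separate the spliced from the unspliced form. Atf6 measured 96.5, 122 and 95.1 CPM in Hcy and 106, 100.4 and 72.5 CPM in Veh, with a log2 fold change of 0.17 (95% interval -0.18 to 0.51, edgeR adjusted p = 0.711). Eif2ak3, the gene of PERK, measured 35.3, 36.9 and 33.2 CPM in Hcy and 37.5, 41.4 and 30.1 CPM in Veh, with a log2 fold change of -0.05 (95% interval -0.32 to 0.22, edgeR adjusted p = 0.914). In both genes the groups overlapped and Veh replicate 3 was the lowest of the 6 libraries. Without it the log2 fold changes were 0.02 for Atf6 and -0.17 for Eif2ak3 (edgeR adjusted p = 0.947 and 0.278), and with the length trend removed 0.18 and -0.04. Ppp1r15a, which directs dephosphorylation of the translation factor that PERK modifies, measured 112, 108 and 113 CPM in Hcy and 112, 113.5 and 118 CPM in Veh, with a log2 fold change of -0.05 (95% interval -0.20 to 0.11, edgeR adjusted p = 0.846).

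Promoter sequence was examined because ATF6 and XBP1 act through known elements. RefSeq promoter windows of the GRCr8 assembly, each of 250 bases before and 50 after a gene's start, were found for 28 of the 34 genes, with none for Atf6, Derl1, Ern1, Manf, Pdia3 and Pdia6. Exact matches on both strands were sought for the ERSE (CCAAT and CCACG with 9 bases between), the ERSE-II (ATTGG and CCACG with 1 base between) and the UPRE core (TGACG followed by TGG). An ERSE lay in the windows of 9 of the 28 genes, where 0.0657% of all 33469 windows held it. An ERSE-II lay in 3 (Dnajb11, Herpud1 and Hyou1), against 0.0508% of all windows, and the UPRE core in 1 (Hyou1, overlapping an ERSE-II), against 0.595%. The elements are given to let their spacers be compared, each read 5′ to 3′ on the strand that carries the motif, with the conserved ends in capitals. The ERSE-II of Dnajb11 spans its start and is not shown.
Hspa5 ERSE: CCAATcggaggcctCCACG
Hsp90b1 ERSE: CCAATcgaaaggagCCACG
Hsp90b1 ERSE: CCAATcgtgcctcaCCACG
Calr ERSE: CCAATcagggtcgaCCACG
Canx ERSE: CCAATcatcacgctCCACG
Creld2 ERSE: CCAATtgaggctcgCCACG
Dnajc3 ERSE: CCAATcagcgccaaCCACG
Ero1b ERSE: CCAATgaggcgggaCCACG
Derl3 ERSE: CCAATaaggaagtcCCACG
Xbp1 ERSE: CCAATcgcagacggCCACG
Hyou1 ERSE-II: ATTGGcCCACG
Hyou1 ERSE-II: ATTGGgCCACG
Herpud1 ERSE-II: ATTGGgCCACG

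These matches are descriptions and do not show binding. The ERSE of Hspa5 begins 43 bases before its start, that of Xbp1 65 bases before, and the ERSE-II of Herpud1 124 bases before. The 11 tested genes with any of the 3 elements had log2 fold changes from -0.22 (Ero1b) to 0.25 (Herpud1), with a median of 0.07. The 16 tested genes whose windows held none had a median of -0.02, and Pdia5 is among them. No test was made of this difference, and the genes were picked as ER genes.

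The 250 bases before the start of Hspa5, Herpud1 and Pdia5 are printed since these 3 genes had the lowest p in edgeR among those with a window. They are from RefSeq GRCr8, 5′ to 3′ along the gene, with the ERSE of Hspa5 and the ERSE-II of Herpud1 in capitals. The Hspa5 and Pdia5 windows are on the plus strand and that of Herpud1 on the minus strand, and GRCr8 positions cannot be compared with the positions listed in the count table. No capitals appear in the Pdia5 sequence, which says only that these letters are not in this window.
Hspa5 chr3:38452766-38453015: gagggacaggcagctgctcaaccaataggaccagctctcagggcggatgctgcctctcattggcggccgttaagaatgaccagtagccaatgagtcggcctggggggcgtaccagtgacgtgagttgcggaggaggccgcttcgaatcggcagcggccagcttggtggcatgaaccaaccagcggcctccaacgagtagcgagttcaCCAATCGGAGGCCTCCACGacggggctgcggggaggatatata
Herpud1 chr19:10614708-10614957: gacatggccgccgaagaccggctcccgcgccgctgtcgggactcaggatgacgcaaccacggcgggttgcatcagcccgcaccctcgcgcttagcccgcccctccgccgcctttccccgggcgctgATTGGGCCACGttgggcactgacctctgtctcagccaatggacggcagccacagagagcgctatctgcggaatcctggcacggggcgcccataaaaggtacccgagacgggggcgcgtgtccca
Pdia5 chr11:78777258-78777507: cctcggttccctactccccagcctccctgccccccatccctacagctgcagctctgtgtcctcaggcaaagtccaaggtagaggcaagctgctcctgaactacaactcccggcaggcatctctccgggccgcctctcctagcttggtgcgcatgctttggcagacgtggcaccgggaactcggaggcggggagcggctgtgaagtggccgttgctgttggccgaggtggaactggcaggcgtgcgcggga

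A further 7 lists of 163 symbols covered other genes of ER protein folding and UPR signalling, and 8 targets of ATF4. Of these symbols 151 were in the table and 148 were tested. Of the genes tested 5 rose and 0 fell in edgeR, or 3.38% and 0%, against 1.32% and 1.01% of all genes tested. Their median log2 fold change was 0.01. Those that rose were 4 of the 8 ATF4 targets and 1 gene of the other lists. Without Veh replicate 3, 13 of the 148 rose and 2 fell, where 3.48% and 3.18% of all genes passed. With the length trend removed the counts were 10 and 1, where 2.70% and 1.97% did, and with DESeq2 8 and 1, where 2.40% and 1.79% did. In each of these alternatives 5 of the 8 ATF4 targets were among those that rose. Among 37 folding helpers edgeR called 1 higher and 0 lower, as did DESeq2, the gene being Rcn2, a calcium-binding protein of the ER. It measured 194, 205 and 195 CPM in Hcy and 113, 114 and 123 CPM in Veh, well apart, with a log2 fold change of 0.76 (SE 0.07, edgeR adjusted p = 0.00115). Without Veh replicate 3 edgeR called 4 of the 37 higher (Rcn2, Prkcsh, Fkbp2 and Kdelr3), and with the length trend removed 2 (Rcn2 and Prkcsh). Prkcsh, Fkbp2 and Kdelr3, named after their values were seen, had log2 fold changes of 0.25, 0.32 and 0.20 over all 6 libraries (edgeR adjusted p = 0.204, 0.463 and 0.494).

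The other 4 genes that rose were among 8 listed targets of ATF4, whose translation PERK favours but which also answers to amino acid shortage. They were Vldlr, Psat1 and Chac1, with log2 fold changes of 0.81, 0.75 and 0.99 (edgeR adjusted p = 0.00134, 0.0022 and 0.00353), and Mthfd2, named after its value was seen, with 0.55 (edgeR adjusted p = 0.0119). The median log2 fold change of this list was 0.46, and 4 of the 8 passed with a rise, as 1.32% of all genes tested did. The list was chosen with earlier results of these data known, so its shares are a description only. It does not hold every gene that ATF4 induces. Of such genes in other groups, Trib3 had a log2 fold change of 0.65, Ddit3 -0.15, Ppp1r15a -0.05 and Atf3, named after its value was seen, 0.04. At an unadjusted p of at most 0.05 in edgeR 5 of the 8 were higher and 0 lower, against 7.44% and 5.95% of all genes tested. The fifth, Asns, the gene of asparagine synthetase, had a log2 fold change of 0.37 (95% interval 0.16 to 0.57, edgeR adjusted p = 0.0863), and it passed with DESeq2, and in edgeR without Veh replicate 3 and with the length trend removed. Of the remaining 3, Phgdh and Sesn2 had log2 fold changes of 0.19 and 0.05, and Slc7a11, a subunit of the cystine transporter, one of -0.18 (95% interval -0.51 to 0.14, edgeR adjusted p = 0.667). These 4 were likewise named after their values were seen. Among 15 other UPR signalling genes 0 passed edgeR's test, with 1 higher and 1 lower at an unadjusted p of at most 0.05 (Trib3 and Creb3, named after their values were seen). Trib3, a pseudokinase gene induced by ATF4, measured 24.99, 17.9 and 22.9 CPM in Hcy and 14.8, 14.0 and 13.01 CPM in Veh, without overlap, at a log2 fold change of 0.65 (95% interval 0.33 to 0.97, edgeR adjusted p = 0.0507). Creb3, which encodes a transcription factor held in the ER membrane, measured 234, 226 and 224 CPM in Hcy and 272, 276 and 292 CPM in Veh, also without overlap, at a log2 fold change of -0.29 (95% interval -0.44 to -0.15, edgeR adjusted p = 0.0540). Both passed, in these directions, with DESeq2 and in edgeR with the length trend removed, and without Veh replicate 3 both passed together with Atf4. Atf4 itself measured 487, 439.7 and 466 CPM in Hcy and 396, 393 and 469 CPM in Veh, so the groups overlapped through Veh replicate 3. Its log2 fold change was 0.15 (95% interval -0.05 to 0.34, edgeR adjusted p = 0.526), and 0.24 without that library (edgeR adjusted p = 0.0344). With the length trend removed it was 0.15 (edgeR adjusted p = 0.220). Ddit3, a transcription factor gene that prolonged PERK signalling induces, had a log2 fold change of -0.15 (95% interval -0.49 to 0.19) and 0.0063 without Veh replicate 3, and Atf6b, a relative of Atf6, one of 0.09 (95% interval -0.09 to 0.27).

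In the remaining lists 0 genes passed edgeR's test. They held 17 tested genes of ER redox, 24 of translocation and glycosylation, 37 of ERAD and 10 of collagen processing, with median log2 fold changes of -0.01, 0.0023, -0.0094 and 0.04, each of which turned sign with at least 1 library left out. At an unadjusted p of at most 0.05 in edgeR the numbers higher were 1, 0, 0 and 1, and those lower 1, 1, 0 and 1. Without Veh replicate 3, edgeR called Prdx4 of the ER redox list and Serpinh1 higher and Fam8a1 of the ERAD list lower, and with the length trend removed it called Prdx4 and Serpinh1 higher (Prdx4 and Fam8a1 named after their values were seen). DESeq2 called 1 gene in these 4 lists, Serpinh1, the collagen chaperone of the ER. It measured 1305, 1198 and 1198 CPM in Hcy and 1021, 1002 and 1036 CPM in Veh, without overlap, and its log2 fold change was 0.28 (SE 0.06, 95% interval 0.13 to 0.42). Its adjusted p was 0.0636 in edgeR, 0.00684 in DESeq2, 0.0109 in edgeR without Veh replicate 3 and 0.00752 in edgeR with the length trend removed.

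**Figure D5:**
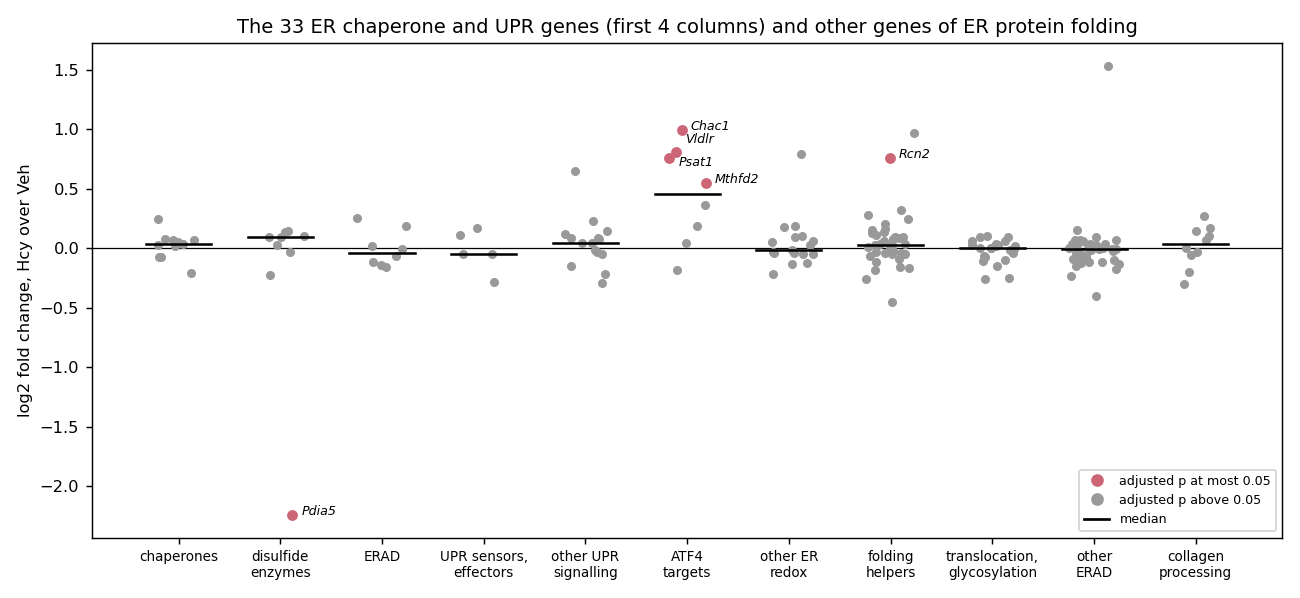
Log2 fold change of Hcy over Veh for each tested gene. The first 4 columns are the role groups of ER chaperone and UPR genes. The others are 7 lists of ER folding genes, UPR signalling genes and ATF4 targets. Each point is a gene, spread sideways only for visibility, red where the edgeR adjusted p is at most 0.05, and black lines are list medians. Red points are Pdia5 below and Rcn2, Vldlr, Psat1, Chac1 and Mthfd2 above, and 10 of the 11 medians lie between -0.05 and 0.09, with that of the ATF4 targets at 0.46.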

How the data were processed

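Poly(A) RNA of 6 rBMEC libraries (3 Hcy, 3 Veh, grouped by title) was sequenced on an Illumina platform. The authors deposited raw counts per gene, with gene positions whose build the table does not name and with gene lengths. The submitters' processing notes list fastp, HISAT2 2.2.1, StringTie 2.2.3, Cufflinks, featureCounts 2.0.6, DESeq2 1.42.0 and mRatBN7.2 (rn7). Whether counting used the strand is not given in the sources used here. A table of the authors' own comparison (normalized values, fold changes, p-values) was not used. R 4.3.3 with edgeR 4.0.16 (limma 3.58.1) and DESeq2 1.42.0 was applied. Genes with at least 10 counts over the 6 libraries were fitted by quasi-likelihood with condition as the only term and TMM factors, and p-values were adjusted by Benjamini-Hochberg over all genes tested. Passing means an adjusted p of at most 0.05. Standard errors and 95% intervals come from this fit.

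Same-numbered libraries correlated at -0.01, 0.18 and 0.06 in their deviations, so numbers were not taken as pairs. Alternatives were DESeq2, its size factors, library totals, other count filters, a replicate block, protein-coding genes only, a prior count of 2, unadjusted p, each library left out, and removal of each library's trend on gene length, added after seeing the data. The procedure was tested on simulated counts that held no trend with gene length, so that check does not cover the trend seen in these libraries. Members and lists were chosen with earlier results of these data known. All 34 members may be named, with full statistics for those that passed, the extreme of each role group, the sensors and Xbp1, and of the other lists up to 3 genes per list by p plus Atf4, Ddit3, Ero1a, Atf6b and Serpinh1. No protein sequences were used here. Listed symbols without a row, such as Pecam1, were not analysed here.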

Additional observations from a re-analysis of the deposited data

How the results depend on the processing

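Pdia5 passed in all 15 alternatives run. The number of the 33 genes that rose, 0 in the reported fit, was 1 with DESeq2 and 1 with the length trend removed, and 0 to 2 when each library was left out. The number that fell, 1, was 1 to 3 when each library was left out. Hspa5 passed in 3 alternatives, and Herpud1, Sel1l and Ern1 each in 1, without Veh replicate 3. In all genes tested, 341 passed the adjusted p alone, against 612 with DESeq2, 682 with the length trend removed, 1955 with the unadjusted p and 80 to 957 with a library left out, the highest without Veh replicate 3 and the lowest without Hcy replicate 1. With the fold-change threshold 71 passed, against 109 without a count filter, 374 with the unadjusted p and 39 to 112 with a library left out. The sign of 11 of the 33 genes turned in at least 1 alternative, in 10 of them only when a library was left out, and Edem3, at -0.12 as reported, had the log2 fold change of greatest size among the 11. With a library left out, log2 fold changes ran from -0.0078 to 0.059 for Calr, -0.014 to 0.053 for Canx, -0.022 to 0.065 for Dnajb9, -0.14 to 0.048 for Manf, -0.0098 to 0.13 for Creld2, -0.019 to 0.087 for Pdia3, -0.059 to 0.0082 for Erp44, -0.036 to 0.063 for Edem2, -0.38 to 0.036 for Edem3, -0.058 to 0.070 for Syvn1 and -0.17 to 0.051 for Eif2ak3, and from -0.24 to 0.0063 for Ddit3. Syvn1 was at 0.0038 with the length trend removed. The cause of these turns was not tested. The median log2 fold change of the 33 genes, 0.023, ran from -0.0078 without Hcy replicate 1 to 0.042 without Hcy replicate 2. By role it ran from 0.027 to 0.057 for the chaperones, 0.024 (without Veh replicate 2) to 0.10 for the disulfide enzymes, -0.054 to 0.027 (without Veh replicate 1) for ERAD and -0.050 to 0.051 (without Veh replicate 2) for the sensors, and from 0.41 to 0.52 for the ATF4 targets, so that the sign turned for all 33 genes, for ERAD and for the sensors. No scaling moved the median of all genes by more than 0.1 on the log2 scale.

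Under the replicate block 298 genes passed the adjusted p and 82 also the fold-change threshold, and of the 33 genes Pdia5 again fell and 0 rose. Same-numbered Hcy and Veh libraries correlated at -0.01, 0.18 and 0.06, and the labels give no shared animal or day.

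In most of these genes the difference between the groups, of 3 libraries each, could not be told from the spread between libraries. Among the 33 genes tested depth was lowest for Pdia5, at 30 to 51 counts in the Hcy libraries.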
